A study of Rattus norvegicus with 6 samples.

Results

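The secreted lipocalin and acute phase protein genes Lcn2, Orm1, Hp, Cp, Reg3b and A2m were examined in primary rat cardiac fibroblast cultures exposed to pertussis toxin. The members are all probe sets that the platform annotation assigns to exactly 1 gene, that gene being 1 of these 6, which gave 13 of the 8740 probe sets on the array, or 6 of the 4736 genes named in this way. A2m was read by 6 of them, Cp by 3, and Lcn2, Orm1, Hp and Reg3b by 1 each. The genes were chosen on the differences between PTX and control signals found earlier on these same arrays, so their levels and differences are given as a description. The limma p-values printed for them only place each probe set within the fit over the whole array.

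The PTX cultures received pertussis toxin (PTX) for 24 h and the control cultures received water, with 3 arrays in each group. Both groups were primary cardiac fibroblasts from ventricles of Sprague-Dawley rats aged 1 to 2 days, grown in 6 well plates and hybridised to 1-colour Affymetrix arrays. PTX ADP-ribosylates the alpha subunits of Gi and Go proteins and so cuts them off from their receptors. The labels give neither its dose nor whether the 3 cultures of a group came from separate isolations, so p-values here reflect the spread among these cultures, which could be technical.

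The acute phase response is the change in secreted proteins that follows injury or infection, driven mainly by interleukin-6 through STAT3 and C/EBP factors and by interleukin-1 and tumour necrosis factor through NF-kB. It is best known in hepatocytes, but fibroblasts, epithelia and macrophages make several of the same proteins. Lcn2 and Orm1 belong to the lipocalins, cup-shaped carriers of small molecules. Hp, Cp and A2m are plasma proteins that bind haemoglobin, carry copper and oxidise iron, and trap proteases. Reg3b is a secreted C-type lectin. In the rat, A2m is one of the classic strongly induced acute phase proteins of the liver.

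Control replicate 1 stood apart. Over log2 values of all probe sets it had a Pearson r of 0.952 to 0.960 with the other 5 arrays, which had 0.978 to 0.985 with each other, and the median signal per array was 63.1 to 68.85. The probe sets named rc_AA799 or rc_AA800 were low on it (375 tested, with a median log2 change of 0.56 for PTX, and of 0.27 once that array was dropped), and 0 of the 13 members belong to that class. Values without control replicate 1 are therefore given for the 13 members, and for the other list genes named here whose call changed. The number of arrays limits the precision.

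Lcn2 rose 3.14-fold with PTX. Reg3b, Hp and 1 probe set of Cp averaged 1.97-fold, 1.84-fold and 1.55-fold higher with PTX, each with all PTX signals above all control signals, without passing the adjusted threshold. Orm1 was near the low end of the signals in both groups. The 6 probe sets of A2m did not give 1 direction. Of the 13 probe sets, 8 passed the filter on low signals, which removed the dimmest 40% of the array (a mean signal under about 33.3), and 5 did not. Among Cp's probe sets, the one just inside the filter was rc_AA817854_s_at, brighter than 48.3% of all probe sets, and the one just outside it was Y12178_at, brighter than 33.6%.

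**Figure D1:**
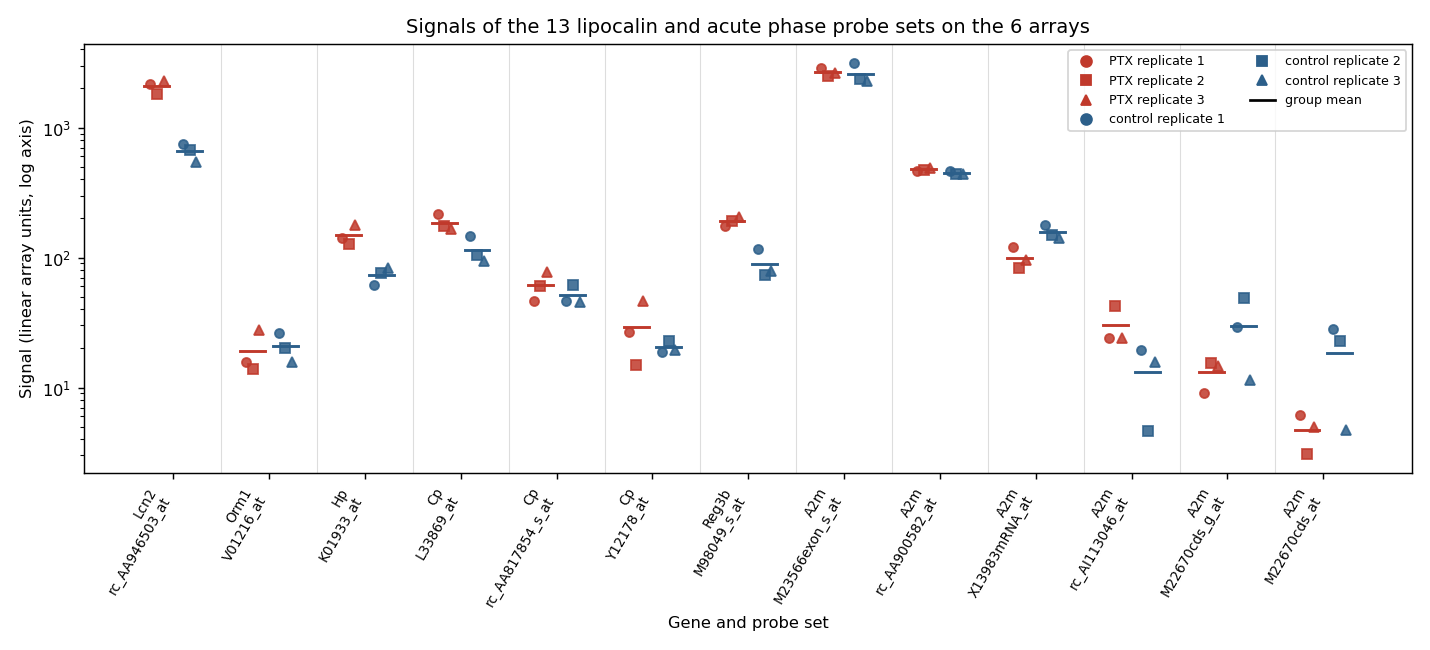
Signal of each of the 13 probe sets (linear array units on a log axis) in 3 PTX cultures (red, left) and 3 control cultures (blue, right), with a symbol for each replicate number and a line at each group mean. The PTX points of Lcn2 lie between 1814 and 2275 and its control points between 547 and 745, whereas the points of Orm1 overlap between 13.8 and 27.9.

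With a limma adjusted p under 0.05 over the 5244 tested probe sets, 1 of the 8 tested members was called higher, Lcn2, where 0.0763% of all tested probe sets were. Of the 8, 0 were called lower, against 0.0% of all. At an unadjusted p under 0.05, 4 were higher and 1 was lower, where 7.97% and 4.61% of all tested probe sets were. All 3 PTX signals lay above all 3 control signals for 5 of the 8 and below them for 1, where this held for 12.0% and 10.6% of all tested probe sets. Because the genes were chosen with these values in view, nothing is read from these shares.

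Lcn2 encodes lipocalin 2, which binds bacterial siderophores and so keeps iron from bacteria. Its probe set had signals of 2171, 1814 and 2275 in the PTX cultures, against 745, 674 and 547 in the control cultures. The groups lay far apart, the lowest PTX signal being 2.44 times the highest control signal. The means were 2087 ± 242 with PTX and 655 ± 99.9 in controls (SD, n = 3 each), a log2 change of 1.65 ± 0.16 (SE; 95% interval 1.28 to 2.03) on the log2(signal + 16) scale used throughout. This was 3.14-fold, with a limma adjusted p of 0.0217, and 10 of the 5244 tested probe sets had a larger log2 change. Without control replicate 1 the log2 change was 1.75 (adjusted p = 0.000148). The change stayed between 1.53 and 1.75 over the settings tried, but the call was lost without PTX replicate 1, 2 or 3 (adjusted p = 0.212, 0.193 and 0.209), without control replicate 2 (0.0745), with replicate number as a block (0.0987), and when eBayes had no intensity trend (0.0720).

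The name of the Lcn2 probe set begins with rc_AA94, and the 36 tested probe sets so named had a median log2 change of 0.02 (-0.10 when control replicate 1 was left out). The median of all tested probe sets was -0.02. Macrophages and leukocytes also make Lcn2. The summed signal of the 10 of their markers measured was 4470 to 5608 with PTX and 3687 to 3711 in controls, and 7 of the 10 passed the filter. Of those 7, 5 were positive and 0 passed the adjusted threshold, 2 being higher and 0 lower on the unadjusted p, and the median log2 change was 0.20. The brightest was Lyz2, a lysozyme gene, with 3445 ± 638 in PTX cultures and 2381 ± 210 in controls (log2 change 0.52, adjusted p = 0.303), read by a probe set named rc_AA892. It carried the separation of the sums, which without it were 1628, 1458 and 1561.5 with PTX, against 1548, 1184 and 1225 in controls, and overlapped. The marker with the smallest p was Fcgr2b, an Fc receptor gene (0.88, adjusted p = 0.0876), which passed without control replicate 1 (0.88, adjusted p = 0.00791), the 1 marker of the 7 to do so. The markers C1qb and C1qc, complement subunits made by macrophages, were at -0.39 (199.5 ± 21.9 with PTX and 270.5 ± 63.2 in controls) and -0.24 (186 ± 25.5 with PTX and 230 ± 80.2 in controls). Without control replicate 1 they were at -0.23 and 0.0021. The remaining tested markers were Cd14 (0.15), Aif1 (0.20) and Cd53 (0.28), of which only Cd14 had groups without overlap. Other defining markers were under the filter, Ptprc with 23.5 in PTX cultures and 34.1 in controls, Csf1r with 23.8 in PTX cultures and 22 in controls, and Itgam with 7.17 in PTX cultures and 13.1 in controls. Their groups overlapped, with log2 changes of -0.24, 0.17 and -0.27, and of 0.13, 0.56 and -0.10 without control replicate 1. Among neutrophil markers, 4 were measured and all 4 lay under the filter, with a summed signal of 22.5 to 39.3 with PTX and 28.7 to 41.5 in controls. The part of these cells in the Lcn2 result was not tested, and in bulk RNA a change in the number of cells of a type and a change in RNA per cell cannot be told apart. No marker of either list was at 0.

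The promoters of Lcn2, Reg3b and Cp are shown because these genes had PTX signals above all control signals on at least 1 probe set and motifs for the factors named above can be read in them. They are RefSeq sequences of the rat assembly GRCr8, from 250 bases before to 50 bases after the annotated gene start, and 4 of the 6 genes matched the table. Capitals mark matches, on either strand, to CTGGGAA (the core of an interleukin-6 response element bound by STAT3), TTCNNNGAA (a palindromic STAT motif), the NF-kB motif (GGG and CC with any 5 bases between them) or TTGCNNAA (C/EBP). Lcn2 lies at chr3:36081731-36082030 on the minus strand, Reg3b at chr4:112419526-112419825 on the plus strand and Cp at chr2:104368420-104368719 on the plus strand.
Lcn2: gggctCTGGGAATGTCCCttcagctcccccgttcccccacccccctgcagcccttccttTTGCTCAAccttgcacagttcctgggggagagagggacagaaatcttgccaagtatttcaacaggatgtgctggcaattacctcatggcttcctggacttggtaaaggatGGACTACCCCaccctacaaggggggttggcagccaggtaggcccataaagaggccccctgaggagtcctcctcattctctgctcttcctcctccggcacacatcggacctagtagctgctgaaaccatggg
Reg3b: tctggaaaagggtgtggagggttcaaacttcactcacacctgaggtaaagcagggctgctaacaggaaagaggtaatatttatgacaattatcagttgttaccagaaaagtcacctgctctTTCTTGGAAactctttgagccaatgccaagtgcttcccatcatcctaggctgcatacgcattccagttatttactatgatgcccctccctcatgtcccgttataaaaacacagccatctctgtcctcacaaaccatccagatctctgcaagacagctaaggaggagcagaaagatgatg
Cp: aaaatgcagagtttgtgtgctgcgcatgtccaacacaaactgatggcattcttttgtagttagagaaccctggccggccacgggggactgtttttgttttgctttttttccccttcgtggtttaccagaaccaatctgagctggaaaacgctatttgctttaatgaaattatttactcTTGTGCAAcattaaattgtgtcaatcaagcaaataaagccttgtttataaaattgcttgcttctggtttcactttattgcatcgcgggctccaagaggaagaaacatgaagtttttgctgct

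The Lcn2 window held 1 match to CTGGGAA, beginning 245 bases before the start, which overlaps an NF-kB motif match on each strand beginning 243 and 242 bases before it. A further NF-kB motif match began 81 bases before the start, and a TTGCNNAA match 191 bases before it. The Reg3b window held 1 match to TTCNNNGAA, 129 bases before the start, and the Cp window 1 match to TTGCNNAA, 72 bases before it. The Orm1 window, not printed, held the NF-kB motif on both strands in overlap, 161 and 160 bases before the start, and TTGCNNAA 123 bases before it. A looser C/EBP motif, TTNNGNAA, was matched once in Lcn2 and once in Cp, both times on the bases of their TTGCNNAA match, 2 times in Orm1, 1 of them on such bases, and not in the Reg3b window. Of all 33469 promoter windows in the table, 11.3% held CTGGGAA, 8.87% TTCNNNGAA, 47.3% the NF-kB motif, 10.6% TTGCNNAA and 41.3% TTNNGNAA. Such matches describe letters only and show no binding.

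**Figure D2:**
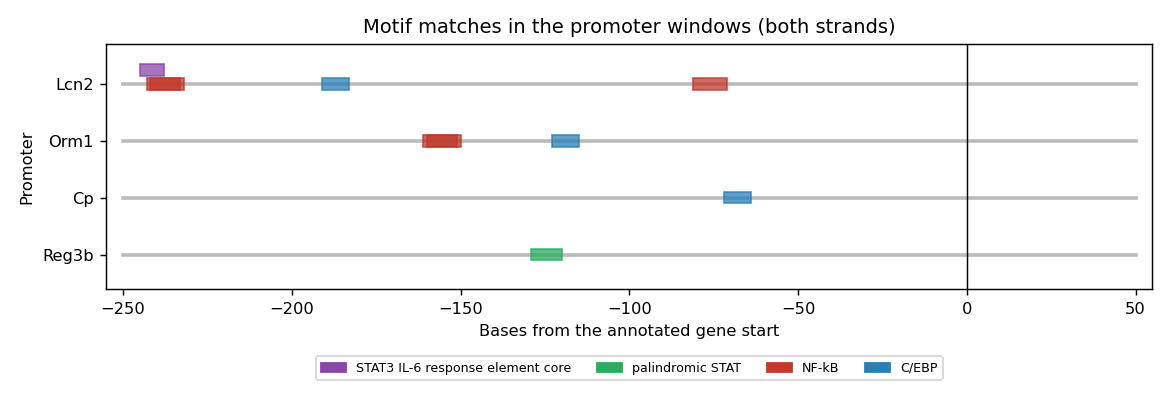
Position of motif matches (coloured boxes; x axis in bases from the annotated gene start, marked by the vertical line) in the promoter windows of Lcn2, Orm1, Cp and Reg3b. In Lcn2 the STAT3 element core, drawn raised, begins 245 bases before the start and overlaps the NF-kB matches there, while Reg3b holds only the palindromic STAT match.

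Orm1 encodes orosomucoid, or alpha-1 acid glycoprotein, a plasma lipocalin that carries drugs and steroids. Its probe set had 15.6, 13.8 and 27.9 in PTX cultures, against 26.1, 20.3 and 15.8 in control cultures. The groups overlapped, and the probe set lay under the filter, brighter than 29.4% of the array. In the fit with no filter the log2 change was -0.08 ± 0.25 (SE; 95% interval -0.66 to 0.50), an interval of 0.635-fold to 1.41-fold on that scale, and it was 0.03 without control replicate 1. Among relatives of these lipocalins, 13 genes were measured and 3 were tested, of which 0 passed in either direction (0 at an unadjusted p under 0.05 as well), with a median log2 change of -0.13. Ptgds, a prostaglandin D synthase and itself a lipocalin, had 423 ± 29.3 with PTX and 468 ± 67.4 in controls (-0.13, adjusted p = 0.694). The other two were the fatty acid binding protein genes Fabp3 (-0.18, adjusted p = 0.492) and Fabp5 (-0.10, adjusted p = 0.711). The lipocalins Ambp, Apod, Rbp4, Obp1f, Obp2b and Apom were under the filter. Apom had 5.4, 35.1 and 22.8 in PTX cultures, against 54.1, 56.5 and 50.5 in controls, all PTX signals being lower. Its log2 change in the fit with no filter was -0.9979 (95% interval -1.809 to -0.1864, adjusted p = 0.4433). Without control replicate 1 it was -0.9933. The groups of Ambp, Apod, Rbp4, Obp1f and Obp2b overlapped.

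Hp encodes haptoglobin, which captures free haemoglobin. Its signals were 141, 128 and 178 in PTX cultures, against 61.2, 76.3 and 82.9 in controls. The groups did not overlap, the lowest PTX signal being 1.54 times the highest control signal. The means were 149 ± 25.9 with PTX and 73.5 ± 11.1 in controls, a log2 change of 0.88 ± 0.20 (SE; 95% interval 0.43 to 1.33) or 1.84-fold. The limma adjusted p was 0.204 (unadjusted p = 0.00214), and 0.0793 without control replicate 1, where the log2 change was 0.78.

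Cp encodes ceruloplasmin, the copper-carrying ferroxidase that lets iron leave cells. Its brightest probe set, L33869_at, had 215, 174 and 165 in PTX cultures, against 147, 104 and 93.3 in controls. The groups lay apart by a narrow margin, the lowest PTX signal being 1.13 times the highest control signal, which was that of control replicate 1. Its log2 change was 0.63 ± 0.20 (SE), or 1.55-fold, with an adjusted p of 0.307. Without control replicate 1 it was 0.80 with an adjusted p of 0.0484, past the threshold.

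The other Cp probe sets did not separate the groups. Probe set rc_AA817854_s_at had 45.9, 60.4 and 76.9 with PTX, against 46.6, 61.8 and 45.1 in controls (log2 change 0.19 ± 0.24 (SE), 95% interval -0.37 to 0.75, adjusted p = 0.724; 0.14 without control replicate 1). Y12178_at had 26.7, 15 and 46 with PTX, against 18.7, 22.9 and 19.4 in controls, and its log2 change of 0.26 comes from the fit with no filter (0.23 without control replicate 1). All 3 intervals of Cp hold the value 0.63, and the difference between the probe sets was not tested.

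Genes that handle iron, haem and copper alongside Hp and Cp showed no call. Of 15 measured, 12 were tested, 5 positive and 7 negative, with a median log2 change of -0.07, and 0 passed adjusted or unadjusted in either direction. Hmox1, the inducible haem oxygenase, had 850 ± 96.3 in PTX cultures and 735 ± 107 in controls (log2 change 0.21, adjusted p = 0.571), and a second Hmox1 probe set had -0.14. Hmox2, the constitutive haem oxygenase, had 293 ± 17.2 with PTX and 361 ± 45.5 in controls (-0.28, adjusted p = 0.450), with all PTX signals below all control signals. On a second Hmox2 probe set the groups overlapped (-0.34, adjusted p = 0.534; -0.08 without control replicate 1). Hpx, which encodes the haem carrier hemopexin, had 0.33 (adjusted p = 0.595), and Sod1, the copper and zinc superoxide dismutase, had -0.19 (adjusted p = 0.560).

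Reg3b encodes a secreted lectin of the regenerating protein family, known in the rat as pancreatitis-associated protein, that binds bacterial cell walls. Its signals were 174, 191 and 204 in PTX cultures, against 116, 73.8 and 79.4 in controls. The groups did not overlap, and control replicate 1 was the highest control. The means were 190 ± 15.4 with PTX and 89.6 ± 22.6 in controls, a log2 change of 0.98 ± 0.20 (SE; 95% interval 0.53 to 1.43) or 1.97-fold, with a limma adjusted p of 0.184 (unadjusted p = 0.00111). Without control replicate 1 the log2 change was 1.15 with an adjusted p of 0.00795, past the threshold. In that fit, 3 of the members were called higher (Lcn2, Reg3b and the brightest Cp probe set), where 1.85% of the 5244 tested probe sets were.

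The name of the Reg3b probe set ends in _s_at, the Affymetrix suffix for probes that can match more than 1 similar transcript. The other family members measured were under the filter. Reg1a had 21.3 in PTX cultures and 20.1 in controls, Reg3a had 7.37 with PTX and 5.17 in controls, and Reg3g had 28.9 with PTX and 28.1 in controls, as means of 3 arrays.

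**Figure D3:**
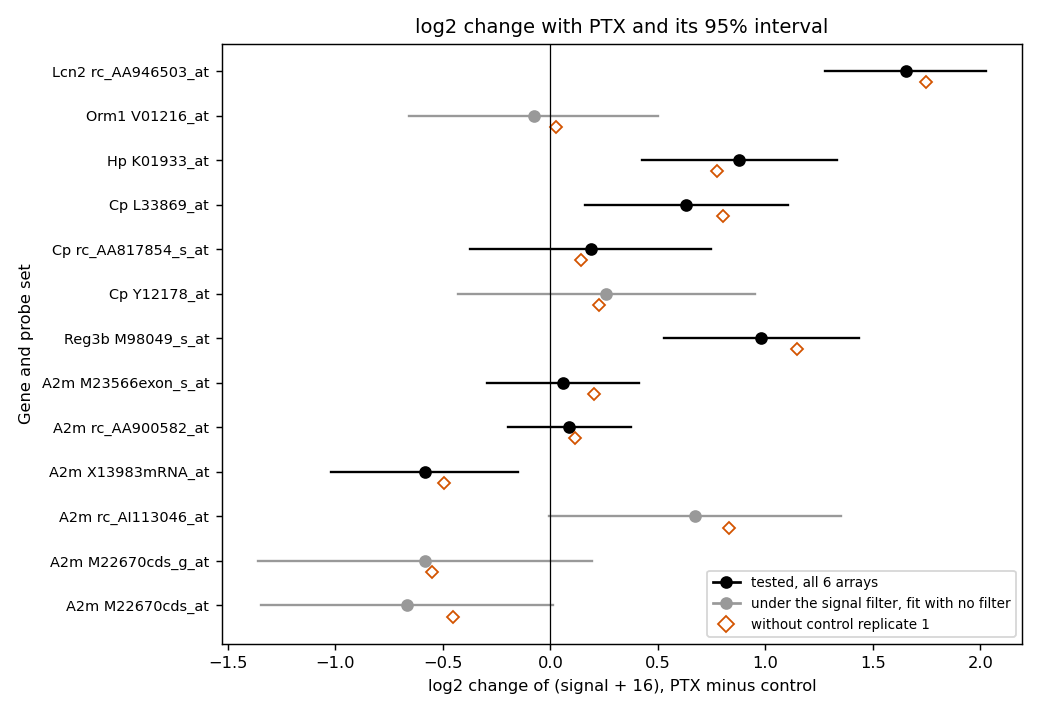
log2 change of (signal + 16), PTX minus control (x axis), for each of the 13 probe sets, as the estimate and its 95% interval from limma (black, tested; grey, under the filter and taken from the fit with no filter), with the value without control replicate 1 as an open diamond. Lcn2 lies at 1.65, Reg3b at 0.98, Hp at 0.88 and the brightest Cp probe set at 0.63, and the 6 A2m probe sets lie on both sides of 0.

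A2m encodes alpha-2-macroglobulin, a large protease trap that also binds cytokines and growth factors. Its brightest probe set, M23566exon_s_at, had 2864, 2513 and 2607 in PTX cultures, against 3113, 2346 and 2269 in controls. The PTX signals lay within the control range, and the log2 change was 0.06 ± 0.15 (SE; 95% interval -0.30 to 0.41, adjusted p = 0.872; 0.20 and 0.392 without control replicate 1). The next, rc_AA900582_at, had 466, 475.5 and 490 with PTX, against 463, 437 and 442 in controls. These groups did not overlap, but by 1.01 times only between the lowest PTX and the highest control signal, and the log2 change was 0.09 ± 0.12 (SE; 95% interval -0.20 to 0.37, adjusted p = 0.743; 0.11 without control replicate 1).

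Another A2m probe set pointed the other way. X13983mRNA_at had 120, 83.3 and 96.5 in PTX cultures, against 179, 150 and 142 in controls. All PTX signals were below all control signals, with means of 99.8 ± 18.4 with PTX and 157 ± 19.6 in controls and a log2 change of -0.58 ± 0.19 (SE; 95% interval -1.02 to -0.15), which did not pass (adjusted p = 0.307, unadjusted p = 0.0145; -0.49 and 0.266 adjusted without control replicate 1). Its interval overlaps those of the 2 brighter probe sets between -0.30 and -0.15 for M23566exon_s_at and between -0.20 and -0.15 for rc_AA900582_at. The difference between probe sets was not tested.

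The other 3 A2m probe sets were under the filter, with no signal above 49.2. Probe set rc_AI113046_at had 24.0, 42.2 and 24.2 with PTX, against 19.5, 4.6 and 15.6 in controls, all PTX signals being higher. M22670cds_g_at had 9.1, 15.5 and 14.6 with PTX, against 29.2, 49.2 and 11.5 in controls. M22670cds_at had 6.1, 3.1 and 5.0 with PTX, against 28.1, 22.7 and 4.7 in controls, and the groups of both M22670 probe sets overlapped through control replicate 3. Their log2 changes in the fit with no filter were 0.67, -0.58 and -0.66, with adjusted p between 0.504 and 0.591, and 0.83, -0.55 and -0.45 without control replicate 1. The annotation does not say which transcripts each A2m probe set matches. The related protease inhibitor genes Pzp, with 4.8 in PTX cultures and 7 in controls, and Mug1, with 3.33 in PTX cultures and 4.77 in controls, were under the filter.

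Among other proteins that rise in the acute phase, 21 genes were measured and 10 passed the filter, each read by its brightest probe set. All 10 were positive, as were 47.1% of all tested probe sets, and Crp turned to -0.04 without control replicate 1. Their median log2 change was 0.29, against -0.02 over all tested probe sets. In limma 1 was called higher (0.0763% of all tested probe sets were) and 0 lower, and 4 were higher at an unadjusted p under 0.05 (7.97% of all). Without control replicate 1, 3 were called higher, Pla2g2a, C3 and Serpina3n, where 1.85% of all were. The call was Pla2g2a, a secreted phospholipase A2, with a log2 change of 4.13 (adjusted p = 0.0217). C3, the central complement component, had 3349 ± 232 with PTX and 1134 ± 365 in controls on its brightest probe set (log2 change 1.59, adjusted p = 0.0579; 1.84 and 1.734e-05 without control replicate 1) and rose on the other (1.34, adjusted p = 0.0429). Serpina3n, a serine protease inhibitor, had 347.5 ± 18 with PTX and 247 ± 73.6 in controls (0.50, adjusted p = 0.383; 0.72 and 0.0244 without control replicate 1). Fn1, encoding fibronectin, was at 0.43 on the brightest of its probe sets (adjusted p = 0.388), while its other probe sets ran from -0.81 to 0.57. The list was drawn up with earlier results of these arrays known, and Pla2g2a and C3 were in them.

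Of proteins that fall in the acute phase, 11 genes were measured and 3 were tested, 1 positive and 2 negative (median log2 change -0.19), with 0 past the adjusted or the unadjusted threshold. These were Apoe (-0.19, adjusted p = 0.652), Apoc3 (-0.33, adjusted p = 0.483) and Igf1 (0.53, adjusted p = 0.655). Without control replicate 1, Apoe had -0.0014, Apoc3 -0.18 and Igf1 -0.19. These values are of the brightest probe set of each gene. On all 6 arrays, the other Igf1 probe sets ran from -0.39 to 0.51. The other Apoc3 probe sets had -0.29 and, under the filter, 0.14, and a second Apoe probe set had -0.22. Alb, which encodes serum albumin, had 22.9 in PTX cultures and 35.9 in controls, under the filter. Of 10 hepatocyte markers measured, 2 passed the filter, Apoc3 and Cyp2e1, and the summed signal of the 10 was 300 to 400 with PTX and 353.5 to 493 in controls, with none at 0.

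Among the cytokines, receptors and transcription factors that drive acute phase genes, 27 were measured and 20 tested, 12 of them positive, with a median log2 change of 0.12. None was called in either direction, 4 being higher and 0 lower on the unadjusted p, and 1 of the 20, Nfkbia, was called higher without control replicate 1. Nfkbia, the NF-kB inhibitor that NF-kB induces, had 446 ± 40.7 in PTX cultures and 253 ± 13.4 in controls (log2 change 0.78, adjusted p = 0.137), and 0.86 on a second probe set (adjusted p = 0.2145). Both passed once that array was left out, at 0.82 (adjusted p = 0.0140) and 1.06 (adjusted p = 0.00662). Il1b, the interleukin-1 beta gene, had 88.7 ± 13.2 with PTX and 49.9 ± 11.8 in controls on its brightest probe set (0.67, adjusted p = 0.324). Its other probe sets gave 1.55, with 74.6 ± 25.1 in PTX cultures and 15 ± 9.40 in controls without overlap (adjusted p = 0.2035, unadjusted p = 0.00194), and 0.21, with overlap and under the filter. Il6r, a chain of the interleukin-6 receptor, had 107 ± 9.49 with PTX and 70.2 ± 18.6 in controls (0.54, adjusted p = 0.374), and Socs2, a feedback inhibitor of cytokine signalling, had 56.5 ± 1.88 with PTX and 28 ± 18.8 in controls (0.82, adjusted p = 0.397; 0.46 without control replicate 1). All PTX signals of these 4 genes lay above their control signals on the probe set first given. Other examples, chosen after their values were seen, were Cebpb (0.00) and Cebpd (0.13), which encode C/EBP factors. Il6, with 20.6 in PTX cultures and 21.5 in controls, and Stat3, with 25 in PTX cultures and 46.5 in controls, were under the filter. The groups of both genes overlapped. Stat3 had 16.8, 29.6 and 28.5 with PTX, against 78.3, 16.2 and 44.9 in controls. Its log2 change was -0.49, and -0.13 without control replicate 1.

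Receptors and binding partners of the members gave 10 measured and 7 tested genes, 5 of them positive, with a median log2 change of 0.13, 0 calls and 1 higher at an unadjusted p under 0.05. That 1 was Mmp9, encoding a gelatinase that forms a complex with lipocalin 2 in human neutrophils. It had 77.8 ± 21.7 in PTX cultures and 24.9 ± 15 in controls, without overlap (log2 change 1.24, adjusted p = 0.269; 0.96 without control replicate 1). Lrpap1, the chaperone of the receptor that clears A2m complexes, had 0.35 (adjusted p = 0.450), Lgals3, a galectin, had 0.26 (adjusted p = 0.4475), and Tgfb1, a cytokine that A2m binds, had -0.28 (adjusted p = 0.616; -0.03 without control replicate 1).

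**Figure D4:**
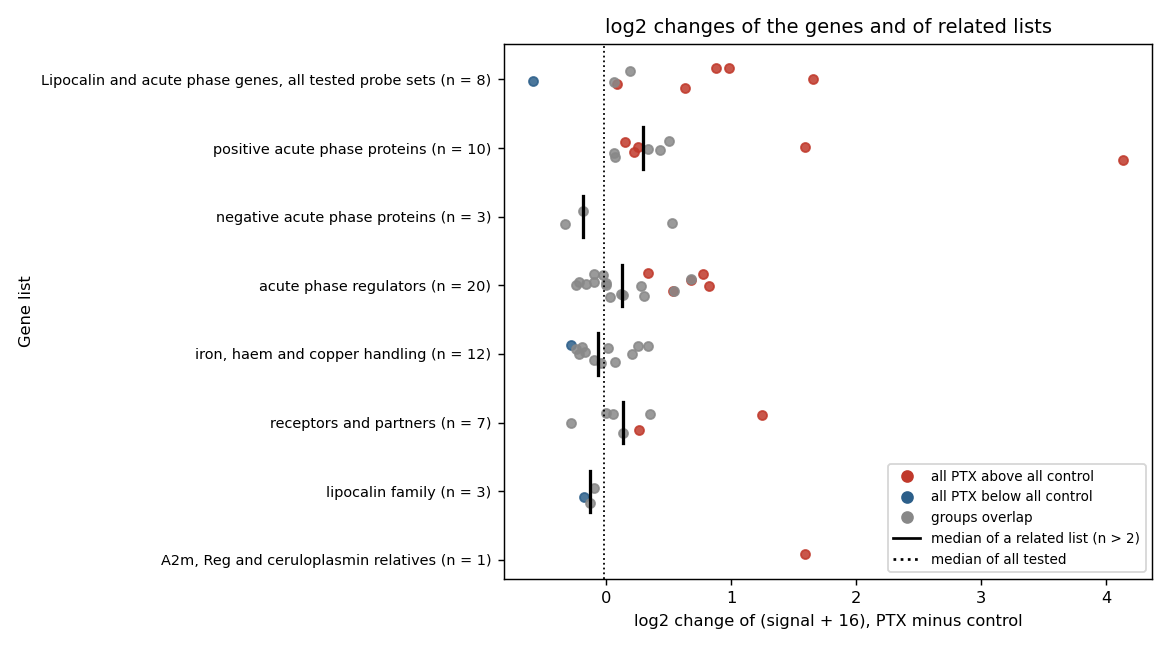
log2 change of (signal + 16), PTX minus control (x axis), of the 8 tested member probe sets and of the tested genes of 7 related lists. The 8 belong to 5 of the 6 genes, Orm1 having none tested, and each list gene is shown by its brightest probe set. Red points have all PTX signals above all control signals, blue points all below and grey points overlapping groups; bars are medians of the related lists, such as 0.29 for positive acute phase proteins, and the dotted line is the median of all tested probe sets, -0.02.

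The genes whose pattern over the 6 arrays was most like that of Lcn2 were found by the root mean square difference between log2 values, each centred on its own mean. The nearest probe sets outside the 6 genes were 2 of C3 (differences of 0.20 and 0.21), 1 of Enpp2, encoding autotaxin (0.22), and 2 of the chemokine gene Ccl2 (0.29 and 0.30). Among the other member probe sets that passed the filter, Reg3b came nearest at 0.38, then Hp at 0.45 and the brightest Cp probe set at 0.53. Of these, X13983mRNA_at of A2m was farthest at 1.12. Such likeness over 2 groups reflects mainly the size of the difference between them.

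The labelled cell type was set against its markers. All 10 fibroblast markers passed the filter, with a summed signal of 87819 to 91926 with PTX and 83812 to 100000 in controls, the brightest being Col3a1, a fibrillar collagen (log2 change -0.22, adjusted p = 0.450). The one with the smallest p was Thy1, a fibroblast surface glycoprotein (-0.97, adjusted p = 0.0743), and 0 passed the adjusted threshold, 4 being higher and 1 lower on the unadjusted p. Of the 10, 6 were positive and 4 negative, with a median log2 change of 0.11. Lum and Postn, matrix protein genes, were at 1.10 (adjusted p = 0.2355) and 1.08 (adjusted p = 0.274), both without overlap. Thy1 was called lower (-0.95, adjusted p = 0.00791) and Lum higher (0.74, adjusted p = 0.00662) without control replicate 1. A second Thy1 probe set, whose groups overlapped, was not called (-0.59, adjusted p = 0.387; -0.44 and 0.455 without control replicate 1). Cardiomyocyte transcripts were also bright: 10 of 11 passed the filter, with a summed signal of 220505 to 249252 with PTX and 254300 to 333452 in controls, so the groups did not overlap. The brightest was Myl2, a ventricular myosin light chain (-0.27, adjusted p = 0.5455), and the smallest p was that of Myh7, a myosin heavy chain (-0.39, adjusted p = 0.375). Without control replicate 1 this Myh7 probe set had -0.21. A second Myh7 probe set, whose groups overlapped, had -0.09 (adjusted p = 0.686). Of the cardiomyocyte markers tested, 0 passed the adjusted threshold in either direction, 0 were higher and 1 lower on the unadjusted p, and their median was -0.21 (-0.10 when control replicate 1 was left out). The part of cardiomyocytes in the members' differences was not tested. Smooth muscle markers summed to 22931 to 23855 with PTX and 22708 to 24929 in controls, with Des (-0.16) the brightest and Tagln (-0.35) of the smallest p. Endothelial markers summed to 447 to 516 with PTX and 460 to 755 in controls, with Edn1 (-0.23) the brightest and Flt1 (-0.20) of the smallest p. Epithelial and mesothelial markers summed to 311 to 340 with PTX and 272 to 425 in controls, with Krt18 (-0.34) both brightest and of the smallest p. None of the markers of these 3 cell classes passed in either direction, adjusted or at an unadjusted p under 0.05 in limma.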

How the data were processed

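Transcript levels were measured in 3 PTX and 3 control cultures, grouped by sample title. The deposited values are linear signal intensities, 1 column per array; per the submitters' processing notes the authors used GCOS, with no version, scaling target or detection calls stated. The 2% trimmed means of the arrays were 493 to 495, so the deposited scaling was kept. Genes were named through the platform annotation (7006 probe sets with 1 symbol, 308 with several, 1426 with none), 6985 of them updated through the Entrez identifier with RefSeq names of GRCr8; the signals carry no genome coordinates.

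Signals were taken as log2(signal + 16), probe sets under the 40th percentile of mean log2 were left out, and the remaining 5244 were fitted with limma 3.58.1 in R 4.3.3 (lmFit, eBayes with an intensity trend, two-sided, Benjamini-Hochberg, threshold 0.05), after a test on simulated data. Fold changes on this scale understate those of low signals. Probe sets under the filter took their SE, interval and adjusted p from a fit with no filter. Named are all members, up to 4 genes per related list with the smallest p, the brightest and smallest-p marker per cell type, and the 5 probe sets most like Lcn2; other genes are examples picked once values were known. Members, lists and settings were chosen with earlier results of these data known. Alternatives were pseudocounts 1 and 64, the filter dropped or set at the 60th percentile, 3 scalings between arrays, a replicate block, eBayes robust or lacking the trend, array quality weights, the rc_AA799 and rc_AA800 probe sets removed, and each array left out. Same-numbered PTX and control arrays did not deviate together (correlations of deviations from group means of -0.093, -0.11 and -0.0080), so the numbers are not taken as pairs.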

Additional observations from a re-analysis of the deposited data

How the results depend on the processing

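In 6 of the 18 alternatives the estimate is the main one by construction. In the other 12 (11 for probe sets under the filter) Lcn2, Hp, Reg3b, all 3 probe sets of Cp and 5 of the 6 of A2m kept their sign. A2m's M23566exon_s_at ranged from -0.0242 to 0.20 with 1 array left out, below 0 without control replicate 2 or 3, and Orm1, under the filter, was positive in 2 of 11. The number of members called higher, 1 in the main setting, was 0 with the replicate block, 0 when eBayes had no trend, 2 with array quality weights (Lcn2 and Reg3b), and 0 to 3 with 1 array left out. Over the whole array, 4 probe sets were called higher in the main setting, 2 with a pseudocount of 1, 7 with 64, 2 with quantile normalization, 0 with the replicate block, 0 without a trend, 9 with robust eBayes, 66 with array quality weights, 8 without the rc_AA799 and rc_AA800 probe sets and 0 to 97 with 1 array left out. Calls lower numbered 0 in the main setting, 15 with array quality weights and 0 to 18 with 1 array left out, and no member was among them. Both highest counts with 1 array left out came without control replicate 1; without control replicate 3 there were 30 higher, and without any 1 PTX array 0. The causes were not tested. Among other named genes, Igf1 M15481_g_at had -0.0742 with array quality weights and -0.19 to 0.91 with 1 array left out, Myl2 X07314cds_at 0.0438 with quantile normalization, and Edn1 -0.81 to 0.13 with 1 array left out, against 0.53, -0.27 and -0.23 in the main setting. Of the A2m probe sets under the filter, rc_AI113046_at had 1.28 and 0.28 with pseudocounts of 1 and 64 and M22670cds_at -1.50 with 1, since the pseudocount sets the size of changes in such low signals. The median log2 change of all tested probe sets lay between -0.05 and -0.0040 in every setting.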
